A study of Mus musculus with 12 samples.

Results

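The serum amyloid A genes *Saa1*, *Saa2*, *Saa3* and *Saa4* and the orosomucoid genes *Orm1*, *Orm2* and *Orm3* encode secreted proteins that the mouse liver makes in large amounts during inflammation. These 7 genes were taken by symbol out of 16292 genes with values, and their symbols and Ensembl identifiers come from the deposited tables. All 7 were listed for 3 of the 4 groups, and *Saa2* was not analysed here in the *Lcn2* null CCl4 group, where 6 were listed.

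Liver RNA came from female C57BL/6 mice that were wild type or lacked *Lcn2*, the gene for lipocalin 2, a secreted carrier of iron-binding siderophores. From an age of 8 weeks, mice of both genotypes were given either mineral oil, the carrier, or CCl4 in this oil at 0.8 ml/kg, by intraperitoneal injection 2 times per week for 8 weeks, and tissue was taken 48 h after the last injection. CCl4 is a liver poison that hepatocytes activate through *Cyp2e1*. All 4 groups received mineral oil, and none was free of injection. Each group had 3 libraries given only as numbered replicates, so the p-values measure the spread between libraries, which may be technical. The null allele is carried by all cells of the mouse, the livers were perfused, and the libraries were made from RNA of liver tissue not sorted by cell type. Per the paper, the larger share of the liver went to leukocyte isolation, and frozen specimens served for RNA. The study's methods name a kit for 3′ ends (MACE) and also a stranded total RNA kit, and what follows on 3′ reads holds for the former. A lower level in such bulk RNA can be fewer cells of a type or less RNA per cell, and these cannot be told apart.

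In the acute-phase response, cytokines such as interleukin 6 and interleukin 1 act on hepatocytes through STAT3, NF-kB and C/EBP factors and raise the secretion of a defined set of plasma proteins. Serum amyloid A 1 and 2 are strongly inducible, travel with high-density lipoprotein and are the precursors of amyloid A deposits. In the mouse, *Saa3* is made mainly outside hepatocytes, for instance in macrophages and adipocytes, whereas *Saa4* is described as constitutive. Orosomucoid, also called alpha-1-acid glycoprotein, is a heavily glycosylated plasma protein that binds basic and neutral drugs and dampens leukocyte responses, and the mouse has several copies of its gene.

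The 4 *Saa* genes lie within 42.3 kb of chromosome 7 (GRCm38, GENCODE M21), with *Saa3* at 46711998-46715700, *Saa4* at 46727998-46732603 and *Saa1* at 46740497-46742980, all on the minus strand, and *Saa2* at 46751790-46754313 on the plus strand. The 3 *Orm* genes lie within 21.3 kb of chromosome 4 on the plus strand, with *Orm1* at 63344560-63348163, *Orm3* at 63356162-63359511 and *Orm2* at 63362449-63365878. If 3′ ends were counted, reads of close copies can be hard to assign. Of the 225 windows of 76 bases, the length of a read, in the last 300 bases of *Orm1*, 95 (42.2%) occurred unchanged in *Orm2*, and the split of reads between these genes is uncertain. None of the 225 windows of *Saa1* occurred in *Saa2* and none of *Orm3* in *Orm1* or *Orm2*, although the last 300 bases of *Saa1* and *Saa2* were 94.3% identical over the aligned part.

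RefSeq start sites gave promoter windows for 6 of the 7 genes, without *Orm1*. The 200 bases before the start are shown for 2 pairs of neighbours with near-identical windows and for *Saa3*, and not for *Saa4*. Capitals mark matches to a C/EBP motif spelled TTNNGNAA, on either strand.
*Saa1* (chr7:46742981-46743180, minus strand, GRCm38.p6): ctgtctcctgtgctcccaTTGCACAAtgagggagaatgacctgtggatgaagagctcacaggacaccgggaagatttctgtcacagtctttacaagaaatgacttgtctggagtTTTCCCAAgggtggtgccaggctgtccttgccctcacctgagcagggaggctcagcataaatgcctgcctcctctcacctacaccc
*Saa2* (chr7:46751633-46751832, plus strand, GRCm38.p6): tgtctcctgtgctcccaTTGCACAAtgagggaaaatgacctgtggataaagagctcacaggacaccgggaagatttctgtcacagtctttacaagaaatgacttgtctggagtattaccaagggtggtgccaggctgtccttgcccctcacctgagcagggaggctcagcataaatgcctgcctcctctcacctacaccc
*Saa3* (chr7:46715677-46715876, minus strand, GRCm38.p6): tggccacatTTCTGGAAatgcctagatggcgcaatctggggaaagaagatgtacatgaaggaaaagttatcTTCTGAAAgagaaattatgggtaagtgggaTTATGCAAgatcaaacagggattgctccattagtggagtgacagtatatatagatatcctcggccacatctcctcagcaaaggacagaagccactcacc
*Orm2* (chr4:63362249-63362448, plus strand, GRCm38.p6): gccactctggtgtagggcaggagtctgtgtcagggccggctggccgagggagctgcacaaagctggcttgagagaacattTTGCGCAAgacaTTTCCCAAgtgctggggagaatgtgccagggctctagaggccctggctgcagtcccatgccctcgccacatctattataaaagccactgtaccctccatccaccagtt
*Orm3* (chr4:63355958-63356157, plus strand, GRCm38.p6): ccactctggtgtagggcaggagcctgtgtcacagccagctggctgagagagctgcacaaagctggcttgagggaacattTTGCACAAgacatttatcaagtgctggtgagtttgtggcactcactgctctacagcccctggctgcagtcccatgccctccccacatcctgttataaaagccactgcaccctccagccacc

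Over 250 bases before the start, the windows of *Saa1* and *Saa2* were 95.6% identical and those of *Orm2* and *Orm3* 89.0%, whereas *Saa3* and *Saa1* shared 64.4% of aligned bases. The motif occurred in all 6 windows, with 4 matches in *Saa3*, 2 each in *Saa1*, *Saa4* and *Orm2*, and 1 each in *Saa2* and *Orm3*. It is a common word, present in 36.8% of the 32851 promoter windows of the same length. Motifs for STAT (TTCNNNGAA, in 7.02% of windows), NF-kB (in 1.41%) and the glucocorticoid receptor (in 0.0365%) had no match in the 6 windows. The other motifs having no match, none overlapped with the C/EBP sites. A match is a description of letters and not of binding.

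Library totals ran from 7582962 to 14591487 reads in genes, and 3 reads corresponded to at most 0.396 CPM, the reads of a gene scaled to the reads in all genes of its library. As a check of the labels, *Lcn2* stood at 345, 739 and 1045 CPM in the wild type oil libraries and at 7.74, 3.44 and 4.21 CPM in the *Lcn2* null oil libraries. On CCl4 it stood at 557, 424 and 405 CPM in wild type and at 16.7, 14.6 and 4.63 CPM in *Lcn2* null. The summed CPM of 8 hepatocyte markers, *Alb* and *Ttr* among them, lay between 73511 and 108097 in every library, as the tissue label says. Here a gene counted as called where limma on log2(CPM + 1) gave both an adjusted p no higher than 0.05 and a change beyond 0.56 on the log2 scale, which is a scale that understates the change of low genes.

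After 8 weeks of mineral oil, all 7 genes were lower in *Lcn2* null than in wild type livers. The fall was 54.5-fold for *Saa2*, 38.5-fold for *Saa1*, 23.1-fold for *Saa3* and 13.03-fold for *Orm2*, and between 2.11-fold and 3.08-fold for *Saa4*, *Orm1* and *Orm3*. Of all 14202 genes tested in this comparison 4.91% were called and 3.8% were called lower. All 3 *Lcn2* null libraries lay below all 3 wild type libraries in each of the 7 genes, as they did in 14.3% of all genes tested.

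**Figure D1:**
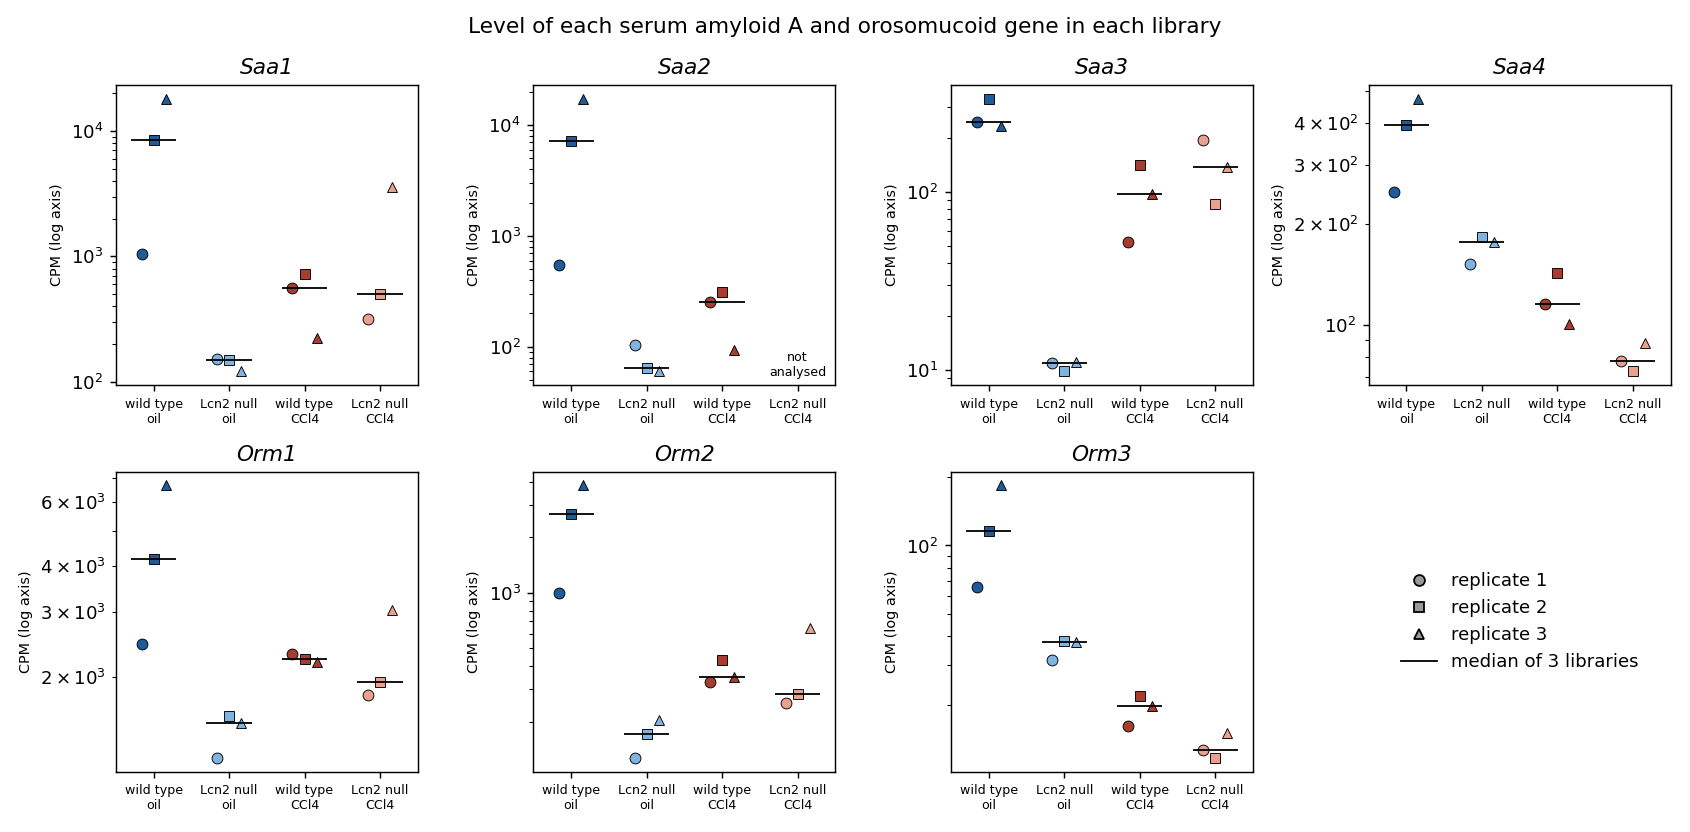
CPM of each gene on a log axis in the 4 groups, with 1 symbol per library and a line at the median of 3 libraries. Wild type oil libraries are the highest for all 7 genes in the median, the 3 *Lcn2* null oil libraries of *Saa3* sit between 9.83 and 11.2 CPM, and *Saa2* has no points for *Lcn2* null CCl4.

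*Saa1* stood at 1049.9, 8462 and 18135 CPM in wild type oil replicates 1, 2 and 3, and at 152, 150.3 and 121 CPM in *Lcn2* null oil. The lowest wild type library was thus far below the other two, and still above all *Lcn2* null libraries. The log2 fold change was -5.27 ± 0.71 (SE, n = 3 per group, limma, adjusted p = 0.00125).

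*Saa2* stood at 552, 7182 and 17294 CPM in wild type oil and at 105, 64.6 and 60.1 CPM in *Lcn2* null oil. The same wild type library was lowest and the same one highest as for *Saa1*. The log2 fold change was -5.77 ± 0.86 (SE, limma, adjusted p = 0.00261). Without wild type oil replicate 1 it was -7.21 for *Saa2* and -6.45 for *Saa1*, and without replicate 3 it was -4.73 and -4.40, all of them called.

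*Saa3* stood at 247, 334 and 235 CPM in wild type oil and at 11.01, 9.83 and 11.2 CPM in *Lcn2* null oil. On the log2 scale its spread between libraries was the smallest of the 7 genes in both groups. In wild type oil this SD was still above the median over all genes with at least 5 CPM (0.27 against 0.17). The log2 fold change of *Saa3*, -4.53 ± 0.14 (SE, limma, adjusted p = 2.71e-09), had the smallest p of all genes tested, that of the deleted *Lcn2* included. The wild type library that was lowest in *Saa1* and *Saa2* was not the lowest in *Saa3*.

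*Saa4* stood at 249, 395 and 474 CPM in wild type oil and at 152, 183 and 177 CPM in *Lcn2* null oil, a log2 fold change of -1.07 ± 0.19 (SE, limma, adjusted p = 0.00525). This was the smallest fall among the 7 genes. *Orm1*, the orosomucoid gene with the most reads in every library, stood at 2453, 4188 and 6666 CPM in wild type oil and at 1196, 1555 and 1495 CPM in *Lcn2* null oil (log2 fold change -1.54 ± 0.27 SE, limma, adjusted p = 0.00597).

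*Orm2* fell further, from 1002, 2657 and 3821 CPM in wild type oil to 127, 173 and 206 CPM in *Lcn2* null oil (log2 fold change -3.70 ± 0.36 SE, limma, adjusted p = 0.000142). Without wild type oil replicate 1 its value was -4.26. *Orm3* stood at 65.5, 116 and 184 CPM in wild type oil and at 31.6, 38.0 and 37.6 CPM in *Lcn2* null oil (log2 fold change -1.62 ± 0.27 SE, limma, adjusted p = 0.00401). With the variance not fitted as a function of expression, limma called 4 of the 7 genes, *Saa1*, *Saa2*, *Saa3* and *Orm2*, and the adjusted p was 0.0646 for *Saa4*, 0.0616 for *Orm1* and 0.0522 for *Orm3*.

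Together the 7 genes took 0.562%, 2.33% and 4.68% of the reads in genes in wild type oil replicates 1, 2 and 3, and between 0.177% and 0.217% in *Lcn2* null oil. Their summed level thus varied most in wild type oil among the 3 groups in which all 7 were listed. The SD of log2(CPM + 1) among its 3 libraries was 2.58 for *Saa2*, the largest of 9012 genes with at least 5 CPM, and 2.13 for *Saa1*, with 5 genes above it, against a median of 0.17 over all these genes. It was 0.998 for *Orm2*, 0.74 for *Orm3*, 0.72 for *Orm1*, 0.48 for *Saa4* and 0.27 for *Saa3*. In *Lcn2* null oil the SD was between 0.09 for *Saa3* and 0.43 for *Saa2*. In *Lcn2* null CCl4 it was 1.86 for *Saa1*, with 6 genes above it, and 0.74 for *Orm2*. *Saa3* was the exception to the order of groups, with an SD of 0.72 in wild type CCl4 and 0.59 in *Lcn2* null CCl4, both above that in wild type oil.

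**Figure D2:**
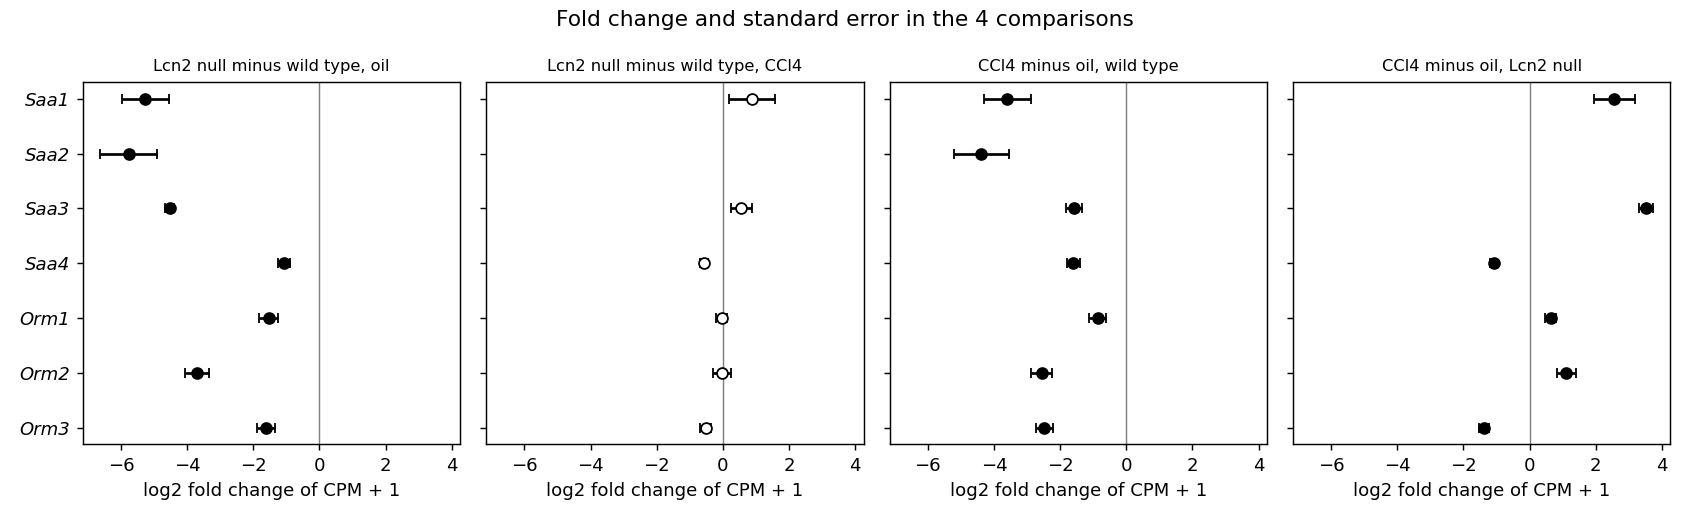
Log2 fold change of CPM + 1 with its standard error for each gene, 1 panel per comparison, with filled circles for called genes and open circles for genes that did not pass. All 7 genes lie left of 0 in *Lcn2* null against wild type on oil and in CCl4 against oil in wild type, and in *Lcn2* null the CCl4 response runs from -1.38 for *Orm3* to 3.52 for *Saa3*.

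Other acute-phase proteins of the plasma and liver moved with these genes. Of 30 on a list that includes *Lcn2* itself, 15 were lower and 0 higher in *Lcn2* null on oil (limma), with a median log2 fold change of -0.80 against -0.03 over all genes. Besides *Lcn2* (-6.78), the leading members were the metal-binding metallothionein *Mt2* (-2.55) and *Lbp* (-1.02), the carrier of bacterial lipopolysaccharide. Of 12 negative acute-phase proteins, which fall in inflammation, 1 was higher and 0 lower at the adjusted threshold (at an unadjusted p under 0.05 these were 6 and 2), and this one was *Serpina6* (0.97), the corticosteroid-binding globulin.

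Among the signalling genes upstream of the acute-phase response, calls were likewise in the lower direction, which held 3.8% of all genes. Of 16 measured cytokines and receptors 4 were lower and 0 higher, led by *Il10rb* (-0.98), a subunit of the interleukin 10 and 22 receptors, *Osmr* (-1.10), the oncostatin M receptor, and the alarmin *Il33* (-0.99), and only 1 without *Lcn2* null oil replicate 1 or 2 or wild type oil replicate 2. Of 24 transcription factors and feedback genes 5 were lower and 0 higher, led by *Cebpd* (-1.45), *Socs3* (-1.41), the feedback inhibitor of interleukin 6 signalling, and *Cebpb* (-0.93), and 3 without *Lcn2* null oil replicate 2 or 3 or wild type oil replicate 2. *Cebpd* lay between 15.6 and 21.0 CPM in wild type oil and between 3.87 and 8.43 CPM in *Lcn2* null oil, without overlap. Of 14 glucocorticoid targets 3 were lower and 0 higher, *Mt2*, the feedback inhibitor of the epidermal growth factor receptor *Errfi1* (-1.04) and *Pck1* (-0.67), the entry enzyme of gluconeogenesis, and 6 were without wild type oil replicate 1.

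Markers of several cell types were lower beside the 7 genes in *Lcn2* null oil livers. For neutrophils it was 8 of 9 measured markers, led by *S100a9* (-2.53), *S100a8* (-2.55) and *Prtn3* (-4.02), and the summed CPM of the list ranged from 195 to 307 in wild type oil and from 24.2 to 45.5 in *Lcn2* null oil. For mesothelial cells, which line the liver surface, it was 8 of 8, led by *Krt19* (-2.36), *Upk3b* (-2.24) and *Upk1b* (-2.24), with sums from 52.3 to 75.7 CPM and from 10.6 to 11.8 CPM. *Krt19* is on the cholangiocyte list too and counts in both lists, here and below. The monocyte marker *Cd14* also counts on the list of other acute-phase proteins. The hepatocyte marker *Tat* also counts among the glucocorticoid targets. For monocytes it was 6 of 7 (sums 281 to 657 and 102 to 159.7 CPM), for Kupffer cells 6 of 7 (692 to 1239 and 380.3 to 504 CPM), for cholangiocytes 3 of 5 (86.6 to 201 and 42.9 to 48.9 CPM) and for stellate cells 2 of 7 (89.5 to 103 and 69.5 to 91.0 CPM). The neutrophil count was 6 with edgeR and 5 without *Lcn2* null oil replicate 1 or wild type oil replicate 2, the monocyte count was 3 without *Lcn2* null oil replicate 1 or 3, and the Kupffer cell count was 3 without *Lcn2* null oil replicate 2. The granule protease *Elane*, which defines immature neutrophils, was at most 0.791 CPM in any library. *Mpo* was at most 2.16 CPM, while *Prtn3* reached 90.4 CPM. No hepatocyte or endothelial marker was called by limma or edgeR, where an unadjusted p under 0.05 in limma was reached by 4 hepatocyte markers in both directions and by 3 endothelial markers, and the 1 measured adipocyte marker did not pass. The part of these cells in the fall of the 7 genes was not tested. Among wild type oil replicates 1, 2 and 3, in the order of rising *Saa1*, the mesothelial sums were 75.7, 70.3 and 52.3 CPM, the monocyte sums 657, 523 and 281 CPM, the Kupffer cell sums 1239, 1038 and 692 CPM, the neutrophil sums 195, 307 and 288 CPM and the cholangiocyte sums 86.6, 95.6 and 201 CPM.

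**Figure D3:**
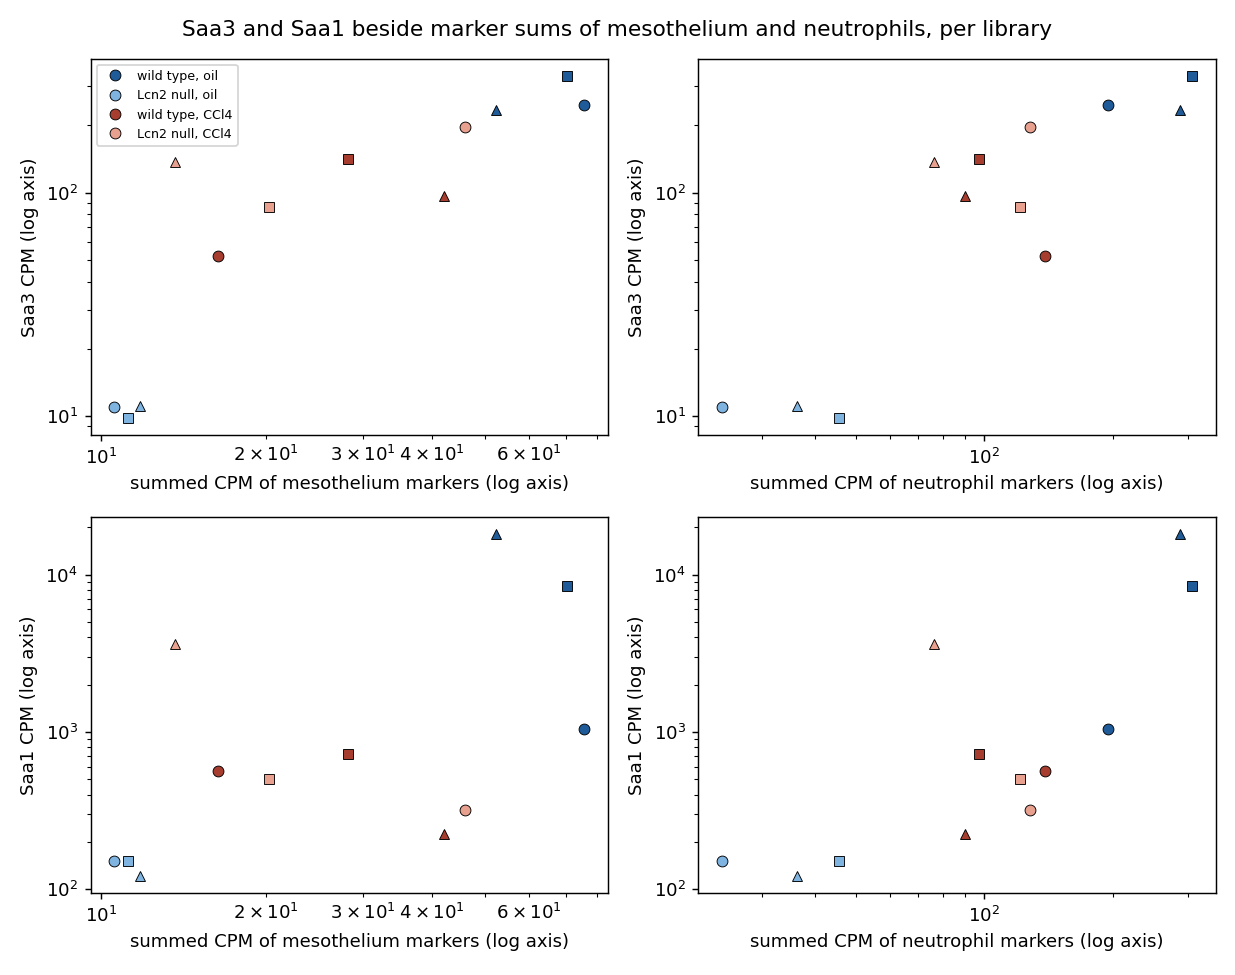
CPM of *Saa3* (upper panels) and *Saa1* (lower panels) against the summed CPM of mesothelial and neutrophil markers in the 12 libraries, all on log axes, with symbols for replicates as in the plot of levels. The 3 *Lcn2* null oil libraries are lowest on both axes of the *Saa3* panels, while the *Lcn2* null CCl4 library with 3607 CPM of *Saa1* lies at 13.6 CPM of mesothelial markers and has the lowest neutrophil sum of its group.

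On CCl4, limma called none of the 6 listed genes between *Lcn2* null and wild type, which does not show that their levels were alike. Over all 14445 genes 0.298% were called, 0.104% higher and 0.194% lower. *Saa4* and *Orm3* reached an unadjusted p under 0.05, edgeR called 0 of the 6 and DESeq2 called 1, *Saa4*.

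*Saa4* stood at 115, 143 and 101 CPM in wild type CCl4 and at 78.1, 72.6 and 88.4 CPM in *Lcn2* null CCl4, without overlap, as in 5.56% of all genes in this direction (log2 fold change -0.57 ± 0.13 SE, limma, adjusted p = 0.129, and 0.000663 from DESeq2). *Orm3* stood at 16.1, 21.9 and 19.9 CPM against 12.7, 11.7 and 15.1 CPM, also without overlap (-0.52 ± 0.17 SE, limma, adjusted p = 0.364). *Saa1* had 561, 728 and 224 CPM in wild type and 318, 499.5 and 3607 CPM in *Lcn2* null, where 1 library was far above the others (0.88 ± 0.69 SE, limma, adjusted p = 0.787). Without that library, *Lcn2* null CCl4 replicate 3, the value of *Saa1* was -0.18.

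*Saa3* had 52.1, 141 and 96.7 CPM in wild type and 196, 86.0 and 138 CPM in *Lcn2* null (0.56 ± 0.32 SE, limma, adjusted p = 0.669). *Orm1* had 2304, 2235 and 2189 CPM against 1785, 1928 and 3038 CPM (-0.04 ± 0.17 SE, limma, adjusted p = 0.972), and *Orm2* 331, 430.3 and 349 CPM against 252, 282 and 648 CPM (-0.04 ± 0.27 SE, limma, adjusted p = 0.981). For these the groups overlapped, and the library highest in *Saa1* was also the highest of its group in *Orm1* and *Orm2*. *Saa2* had 256, 311 and 93.2 CPM in wild type CCl4. All genes outside the tables together took 611, 694 and 2643 CPM in *Lcn2* null CCl4 replicates 1, 2 and 3, which bounds the *Saa2* level there from above.

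Marker sums on CCl4 overlapped between the genotypes for neutrophils, monocytes, Kupffer cells, mesothelial cells and stellate cells. They did not overlap for cholangiocytes (202 to 268 CPM in *Lcn2* null, 317 to 736 CPM in wild type) or for the endothelium (143 to 169 and 175 to 318 CPM), whose part in the values of the 6 genes was not tested. Of the neutrophil, monocyte, Kupffer cell, mesothelial, stellate cell, cholangiocyte and endothelial markers limma and edgeR called 0 between the genotypes on CCl4, and DESeq2 called 2 cholangiocyte markers lower. At an unadjusted p under 0.05, limma had 1 neutrophil, 2 stellate cell, 2 cholangiocyte and 1 endothelial marker. Of the other acute-phase proteins only *Lcn2* was called (-5.30), of the negative ones *Serpina6* (-0.91, lower here), and of the glucocorticoid targets *Tat* (-0.83) and *Sds* (-1.24), enzymes of amino acid breakdown, all named here after their values were seen. *Tat* is also on the hepatocyte list, of which limma thus called 1 of 8 markers lower on CCl4.

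The response to CCl4 was measured against oil within each genotype, so each of these comparisons shares its oil libraries with the genotype comparison on oil and its CCl4 libraries with that on CCl4. In wild type livers all 7 genes were lower with CCl4 than with oil. Over all 15841 genes 21.7% were called, made up of 3.18% called lower and 18.5% called higher. The scale matters here, since the median log2 fold change over all genes was 0.27 in wild type and 0.35 in *Lcn2* null on the scale of library totals, and 0.02 and 0.03 after TMM scaling. Of the called genes, 85.3% were higher in wild type on the first scale and 52.6% on the second, and in *Lcn2* null 86.8% and 54.0%.

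The falls in wild type were -4.38 ± 0.84 for *Saa2* (SE, limma, adjusted p = 0.00145), -3.59 ± 0.71 for *Saa1* (0.00183), -2.56 ± 0.33 for *Orm2* (5.32e-05) and -2.48 ± 0.26 for *Orm3* (6.96e-06). They were -1.60 ± 0.19 for *Saa4* (2.59e-05), -1.58 ± 0.25 for *Saa3* (0.000351) and -0.87 ± 0.26 for *Orm1* (0.0226, limma). Relative to the median of all genes each fall was larger, and with TMM scaling they ran from -1.20 for *Orm1* to -4.71 for *Saa2*, all called. The 3 CCl4 libraries lay below the 3 oil libraries for every one of the 7 genes, and for 6.82% of all genes. *Orm1* came closest to overlap, with 2304 CPM in the highest CCl4 and 2453 CPM in the lowest oil library, and its call was lost without any one CCl4 library or without oil replicate 2 or 3 (adjusted p from 0.0639 to 0.0869, limma). Without oil replicate 1 the values were -4.78 for *Saa1* and -5.83 for *Saa2*, and without oil replicate 3 they were -2.72 and -3.34.

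Of the 30 other acute-phase proteins 16 were lower and 0 higher with CCl4 in wild type (median log2 fold change -0.59, and 22 lower after TMM scaling), led by *Lbp* (-1.68), *Mt2* (-2.37) and the metalloreductase *Steap4* (-1.23). Of 12 negative acute-phase proteins 3 were lower, the paraoxonase *Pon1* (-0.99), the thyroxine-binding globulin *Serpina7* (-1.50) and the apolipoprotein *Apoa2* (-0.63). Of 20 cytokines and receptors 3 were higher, *Il11ra1* (0.77), *Il10rb* (0.88) and *Lif* (0.78), and 2 lower, the interleukin 6 receptor *Il6ra* (-0.73) and *Il18* (-0.74). After TMM scaling it was 2 higher and 4 lower. Counts of higher genes on the first scale are to be read against the 18.5% of all genes called higher, and counts of lower genes against 3.18%. Of 24 transcription factors and feedback genes *Socs3* (-1.40) was lower and *Saal1* (0.72), the neighbour of *Saa3*, higher, against 0 higher and 4 lower after TMM scaling. Of 14 glucocorticoid targets 4 were lower, with *Klf9* (-1.82) and *Pck1* (-1.67) beside *Mt2*, and *Sgk1* (1.34) was higher.

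Cell markers moved beside them in both directions, and their counts stand beside 18.5% of all genes called higher and 3.18% called lower. Mesothelial markers were lower with CCl4 in wild type (7 of 8, sums 16.3 to 42.1 CPM), but without wild type oil replicate 1 only 2 were, without replicate 2 it was 3, and without CCl4 replicate 1 or 2 it was 3 or 4. Neutrophil markers were lower in 4 of 11 (sums 90.1 to 139 CPM) and Kupffer cell markers in 4 of 7 (sums 550.0 to 1003 CPM). Stellate cell markers were higher in 4 of 7, led by *Col1a1* (4.95), and cholangiocyte markers in 3 of 6 with 1 lower, while 1 monocyte marker, *Ccr2* (2.43), and 1 endothelial marker, *Pecam1* (1.38), were higher. Among hepatocyte markers *Cyp2e1* (-2.79) and *Fgb* (-1.13) were lower and *Cps1* (0.64) higher. Their part in the fall of the 7 genes was not tested.

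In *Lcn2* null livers the genes went in opposite directions with CCl4. All 6 listed genes were called, against 34.1% of the 15645 genes tested, with 29.6% higher and 4.51% lower. *Saa3* rose 11.4-fold and *Saa1* rose 5.88-fold, while *Saa4* fell 2.13-fold and *Orm3* fell by 1.38 on the log2 scale. *Orm2* and *Orm1* were 2.16-fold and 1.55-fold higher on the scale of library totals only.

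*Saa3* went from 9.83 to 11.2 CPM in the 3 oil libraries to 86.0 to 196 CPM in the 3 CCl4 libraries (log2 fold change 3.52 ± 0.22 SE, limma, adjusted p = 1.87e-07, and 3.11 with TMM). *Saa1* went from 121 to 152 CPM to 318 to 3607 CPM (2.56 ± 0.62 SE, limma, adjusted p = 0.00537). Without CCl4 replicate 3 its value was 1.497, without CCl4 replicate 1 it was 3.25, and both were called. *Saa4* went down from 152 to 183 CPM to 72.6 to 88.4 CPM (-1.09 ± 0.11 SE, limma, adjusted p = 7.49e-06) and *Orm3* from 31.6 to 38.0 CPM to 11.7 to 15.1 CPM (-1.38 ± 0.15 SE, limma, adjusted p = 1.42e-05). None of these groups overlapped, against 8.53% of all genes that were lower and 45.3% that were higher with CCl4 without overlap.

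*Orm2* (1.11 ± 0.28 SE, limma, adjusted p = 0.00679) and *Orm1* (0.64 ± 0.17 SE, limma, adjusted p = 0.0108) did not overlap between the groups either, with 206 CPM in the highest oil and 252 CPM in the lowest CCl4 library of *Orm2*. After TMM scaling their values were 0.69 and 0.21, with adjusted p of 0.0891 and 0.43 (limma), and neither was called with size factors, edgeR or DESeq2. Their calls thus held only on the scale of library totals. *Orm1* also lost its call without CCl4 replicate 3 (value 0.40) or without oil replicate 1 (adjusted p = 0.059, limma). Counts of cell markers on the scale of library totals stand beside 29.6% of all genes called higher and 4.51% called lower. Monocyte markers were higher beside the 6 listed genes in 7 of 7 and neutrophil markers in 8 of 10 (5 after TMM scaling or without oil replicate 1). Mesothelial markers were higher in 2 of 8, which is not above the share of all genes, with sums from 13.6 to 46.0 CPM. Stellate cell markers were higher in 5 of 7 (sums from 69.5 to 91.0 CPM on oil and from 431 to 887 CPM on CCl4), cholangiocyte markers in 3 of 5 (42.9 to 48.9 and 202 to 268 CPM) and Kupffer cell markers in 4 of 7 with 2 lower (380.3 to 504 and 508 to 749 CPM). Their part in the response of the 6 genes was not tested.

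The list of other acute-phase proteins held 6 higher and 3 lower genes in this comparison (limma), and 4 higher and 12 lower after TMM scaling, so that its balance also depended on the scale. Counts of higher genes on the first scale are to be read against the 29.6% of all genes called higher. On the first scale only 1 was lower without CCl4 replicate 1 or oil replicate 1. The cytokine and receptor list held 7 higher and 1 lower (2 and 4 with TMM, and 3 to 4 higher without CCl4 replicate 2 or oil replicate 1 or 2), and the list of transcription factors and feedback genes 9 higher and 1 lower (2 and 1 with TMM). The negative acute-phase proteins held 1 higher and 3 lower (0 and 5 with TMM) and the glucocorticoid targets 2 and 2 (1 and 5 with TMM).

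Whether the response to CCl4 differed with genotype was tested as an interaction over the 12 libraries and 15194 genes, of which 1.9% were called, 1.09% with a higher and 0.816% with a lower response in *Lcn2* null. The higher ones made up 57.1% of these calls, and 41.5% after TMM scaling. Of the 6 listed genes 4 were called, all with the higher response in *Lcn2* null. By construction the interaction equals the genotype difference on CCl4 minus that on oil, so it is not separate from those comparisons. The log2 difference was 6.15 ± 1.18 for *Saa1* (SE, limma, adjusted p = 0.0104), 5.09 ± 0.40 for *Saa3* (3.1e-06), 3.67 ± 0.53 for *Orm2* (0.00149) and 1.504 ± 0.37 for *Orm1* (0.0421, limma). It was 1.10 ± 0.35 for *Orm3* (adjusted p = 0.122) and 0.51 ± 0.25 for *Saa4* (adjusted p = 0.367, limma), which did not pass. *Orm1* lost its call with TMM scaling (limma, adjusted p = 0.0725) and without any library other than wild type oil replicate 1. Without that library all 6 genes were called, with 0.77 for *Saa4*, 1.48 for *Orm3* and 7.33 for *Saa1*. The *Saa1* difference was also 6.84 without *Lcn2* null CCl4 replicate 1, 5.09 without *Lcn2* null CCl4 replicate 3 and 5.28 without wild type oil replicate 3, called in each. Without the variance trend limma called *Saa3* and *Orm2* and not *Saa1* (adjusted p = 0.0919). Of the 30 other acute-phase proteins 9 had a higher and 0 a lower response in *Lcn2* null, led in size by *Cd14* (2.14), *Lrg1* (2.02) and *Mt2* (1.98), named after their values were seen, and 13 did without wild type oil replicate 1.

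The genes showed 2 orders of levels over the 4 groups. *Saa4* and *Orm3* descended without overlap from wild type oil to *Lcn2* null oil, wild type CCl4 and *Lcn2* null CCl4. The last step, between the genotypes on CCl4, was not called by limma for either gene (adjusted p = 0.129 and 0.364). This order is a description, and the share of all genes that follow it was not counted. *Saa1*, *Saa3*, *Orm1* and *Orm2* were likewise highest in wild type oil, and lowest in *Lcn2* null oil, with the 2 CCl4 groups between them and overlapping each other. For *Saa1* the highest *Lcn2* null CCl4 library (3607 CPM) also exceeded the lowest wild type oil library (1049.9 CPM), and for *Orm1* 3038 CPM exceeded 2453 CPM. *Saa2* followed the order of *Saa1* in the 3 groups in which it was listed.

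Ratios within a library showed how the copies moved against each other. They compare numbers of reads and not levels per transcript length. If 3′ ends were counted, the split of reads between *Orm1* and *Orm2* is uncertain, since 42.2% of the *Orm1* windows occurred in *Orm2*. Ratios to *Orm1* carry this limit. *Orm3* had 0.0244 to 0.0276 reads per *Orm1* read in the 6 oil libraries of both genotypes and 0.00498 to 0.00981 in the 6 CCl4 libraries. *Orm2* had 0.408 to 0.634 reads per *Orm1* read in wild type oil, and 0.106 to 0.213 in the 9 libraries of the other groups. The ratio of *Saa2* to *Saa1* was 0.525, 0.849 and 0.954 in wild type oil, 0.430 to 0.686 in *Lcn2* null oil and 0.415 to 0.457 in wild type CCl4. These ratios were looked at after the values were seen and were not tested.

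**Figure D4:**
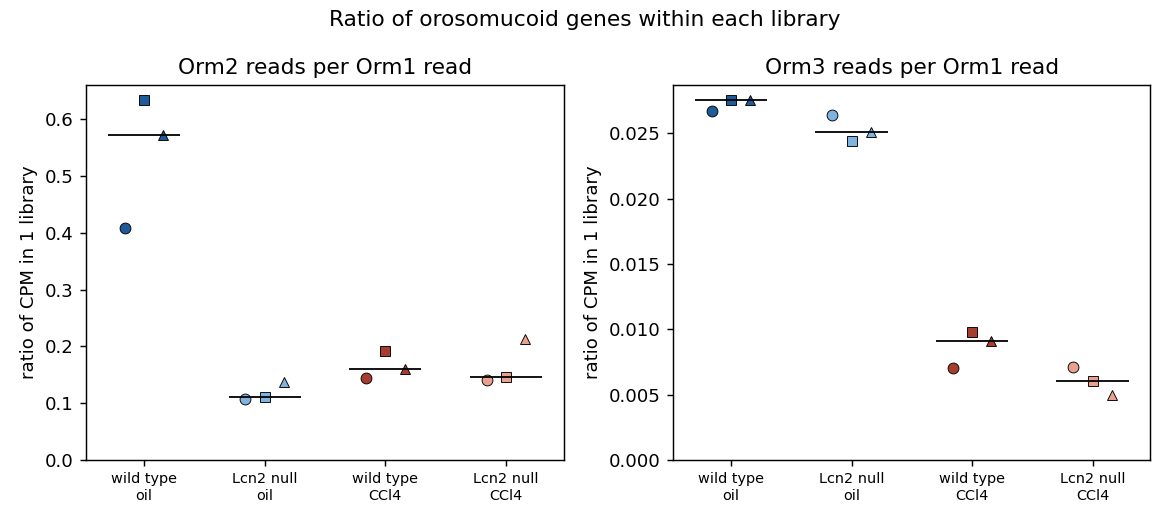
Reads of *Orm2* (left) and *Orm3* (right) per read of *Orm1* in each library, with axes from 0 and a line at the median of 3 libraries. The ratio of *Orm2* is high in wild type oil alone, from 0.408 to 0.634, and that of *Orm3* separates the 6 oil libraries from the 6 CCl4 libraries. The split of reads between *Orm1* and *Orm2* is uncertain.

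Over the 12 libraries, the 6 genes listed in all of them were correlated to differing degrees. The value between *Orm1* and *Orm2* carries the uncertain split of their reads. As a description over libraries that share their groups, the Pearson r of log2(CPM + 1) was 0.96 between *Saa1* and *Orm1*, 0.95 between *Saa1* and *Orm2*, 0.96 between *Orm1* and *Orm2* and 0.99 between *Saa4* and *Orm3*, 0.75 between *Saa1* and *Saa3*, 0.73 between *Orm2* and *Orm3*, 0.70 between *Saa4* and *Orm2*, 0.56 between *Saa1* and *Saa4* and 0.18 between *Saa3* and *Saa4*. Of 9575 genes with at least 5 CPM outside the family, *Saa1* was most like *Lrg1* (0.92), *Pdia5* (0.91) and *Itih4* (0.90). *Orm1* was most like *Itih4* (0.94), *Cpb2* (0.94) and *Itih3* (0.94), and *Orm2* most like *Cpb2* (0.94), *Pdia5* (0.94) and *Prtn3* (0.93). *Saa3* had other neighbours, *Krt19* (0.93), *Cd14* (0.93) and *Il16* (0.92). *Saa4* and *Orm3* shared *Gne* (0.96 and 0.97), the first enzyme of sialic acid synthesis, and *Cyp3a13* (0.97 and 0.95), followed by *C1ra* (0.93) for *Saa4* and by *Mbl1* (0.94) for *Orm3*.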

How the data were processed

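Liver RNA of 12 samples was measured by RNA-seq, for which the methods name both a 3′ end kit (MACE) and a stranded total RNA kit, sequenced on an Illumina NextSeq over 76 cycles. Per the study's methods, reads were aligned with STAR to mm10 in an nf-core pipeline and quantified with Salmon, while the submitters' processing notes name featureCounts. The values used are CPM, which the authors deposited in 4 tables of 6 libraries each, scaled to all reads in genes. The tables also hold the authors' own comparison columns (mean, fold change, error, statistic, p-values), and further files hold enrichment results. Neither was used, and 0 sample columns were left unmapped. All CPM values came out as whole reads (100% within 0.001 of a whole number), from 7582962 to 14591487 reads per library, so that 3 reads were worth 0.206 to 0.396 CPM. Such floors cover counting error only. No replicates were duplicates (chi-square per gene from 8.11 to 71.7).

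Genes were tested with limma 3.58.1 (R 4.3.3) on log2(CPM + 1) with a variance trend, within the 6 libraries compared and, for the interaction, within all 12, with Benjamini-Hochberg adjustment over all genes of the table. Calls needed an adjusted p of 0.05 or less and a log2 fold change above 0.56 (1.47-fold). The fits were tested on simulated data. Alternatives were pseudocounts of 0.5 and 5, a filter at 1 CPM, no variance trend, TMM factors, DESeq2 size factors, edgeR 4.0.16 and DESeq2 1.42.0 on the recovered reads, each library left out, a replicate block, other fold thresholds and 1 fit of 12 libraries. The genes, the context lists and the marker lists were chosen with earlier results of these data known. Up to 3 called genes per direction with the largest statistic were named from a list in 2 comparisons (genotype on oil, CCl4 in wild type), and the 3 genes most like each member were named by Pearson r. Gene positions came from GENCODE M21, promoters from RefSeq on GRCm38.p6, and sequences were compared with Biopython 1.88.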

Additional observations from a re-analysis of the deposited data

Results flagged for a closer look

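The response to CCl4 differed between the genotypes by the interaction test in 4 genes. By construction this is also the genotype difference on CCl4, which limma called in none of them, minus that on oil, called in all 4. Given as the log2 fold change in *Lcn2* null minus that in wild type, with limma on 12 libraries, the difference was 6.15 for *Saa1*, which went down with CCl4 in wild type (-3.59) and up in *Lcn2* null (2.56). For *Saa3* it was 5.09, from -1.58 in wild type and 3.52 in *Lcn2* null. For *Orm2* it was 3.67, from -2.56 and 1.11. For *Orm1* it was 1.504, from -0.87 and 0.64. The rises of *Orm2* and *Orm1* in *Lcn2* null were called on the scale of library totals only. After TMM scaling they were 0.69 and 0.21 and not called. The difference of *Orm1* was not called with TMM scaling, nor that of *Saa1* without the variance trend. With each library left out in turn, the difference of *Saa1* ranged from 5.09 to 7.33 and was called each time, while *Orm1* was called only without wild type oil replicate 1.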

How the results depend on the processing

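Over all alternatives that were run, 92 values of the number of called genes stayed within 1.5 times the number reported and 3 did not. The exceptions were 4 genes (in place of 7) for genotype on oil and 2 (in place of 4) for the interaction, both without the variance trend, and 1 (in place of 0) for genotype on CCl4 with DESeq2. For CCl4 in *Lcn2* null, 4 genes in place of 6 counted as within this limit. That was so with TMM factors, DESeq2 size factors, edgeR and DESeq2, each of which lost *Orm1* and *Orm2*. With 1 library left out, the called genes numbered 7 to 7 for genotype on oil, 0 to 0 for genotype on CCl4, 6 to 7 for CCl4 in wild type, 5 to 6 for CCl4 in *Lcn2* null and 3 to 6 for the interaction. Of the fold changes of single genes under an alternative, 492 kept direction and side of the threshold, 37 lost their call, 3 gained one and 8 changed sign. All 8 were in genotype on CCl4 and called in neither setting. For *Orm2* the value was 0.0404 with edgeR and 0.0405 with DESeq2, and -0.46 to 0.22 with 1 library left out (0.14 without *Lcn2* null CCl4 replicate 2, 0.08 without wild type CCl4 replicate 2). For *Orm1* it was -0.27 to 0.11 (0.05 without *Lcn2* null CCl4 replicate 2) and for *Saa1* -0.18 to 1.57. The cause was not tested. With edgeR the falls of *Saa1* and *Saa2* were deeper, at -6.01 and -6.76 for genotype on oil and -4.54 and -5.59 for CCl4 in wild type, and the interaction of *Saa1* was 7.52.

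Same-numbered libraries did not deviate together (correlations from -0.14 to 0.11), and with the replicate block the called genes stayed at 7, 0, 7, 6 and 4. The fit of 12 libraries held no *Saa2*. Over all genes, edgeR and DESeq2 called 673 and 946 genes for genotype on oil, 31 and 184 on CCl4, 2226 and 2534 for CCl4 in wild type, 3688 and 3849 in *Lcn2* null, and 335 and 709 for the interaction, against 697, 43, 3435, 5336 and 289 with limma. With TMM scaling limma called 2279 for CCl4 in wild type (1199 higher, 1080 lower, against 2931 and 504) and 3634 in *Lcn2* null (1962 and 1672, against 4631 and 705). For the interaction, 57.1% of the called genes were higher in *Lcn2* null, against 41.5% with TMM scaling. Depth did not limit the 7 genes, of which the lowest value was 9.83 CPM.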

Other observations

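Receptors of serum amyloid A and its partners on high-density lipoprotein were compared with the share of all genes called. Of 20 measured genes, 1 (against 4.91% of all genes), *Tlr2* (-1.61), a receptor of bacterial lipopeptides and of serum amyloid A, was lower in *Lcn2* null on oil (limma), and 0 were called on CCl4 (0.298% of all genes), where 0 also reached an unadjusted p under 0.05 and edgeR and DESeq2 called 0. With CCl4 in wild type 4 of 21 were higher (18.5% of all genes), led by the lysosomal protease *Ctsd* (1.08), the scavenger receptor *Cd36* (0.82) and the cholesterol exporter *Abca1* (0.58), and 4 were lower (3.18% of all genes), led by hepatic lipase *Lipc* (-0.85), the phospholipid transfer protein *Pltp* (-1.65) and the formyl peptide receptor *Fpr1* (-1.03). After TMM scaling 1 was higher and 6 lower, and without wild type oil replicate 2 it was 2 and 2. With CCl4 in *Lcn2* null 7 of 20 were higher and 5 lower (29.6% and 4.51% of all genes), and 2 and 6 after TMM scaling.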
